A study of Mus musculus with 30 samples.

Results

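Adipocyte transcripts were followed in kidney RNA through 10 genes known to mark fat cells, Adipoq, Lep, Retn, Plin1, Plin4, Cidea, Cidec, Ucp1, Cfd and Fabp4, of 55385 genes in the tables. They were chosen for what they are known to be in white and brown adipocytes, to show how much RNA of fat attached to the organ each library may hold. All 10 were found by their Ensembl identifiers in the GENCODE M21 annotation, and all 10 passed the expression filter that left 18177 genes for testing.

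The kidney set held 16 libraries from 16 mice at 16 weeks of age, 4 in each of 4 groups. Wild-type (WT) mice and mice with a global knockout (KO) of Camk2d, a calcium/calmodulin-dependent kinase subunit, were each studied with Lepr(+/+), the non-diabetic state, and with Lepr(db/db), which lacks the signalling form of the leptin receptor and was labelled diabetic. Both genetic changes affect every cell of the animal, so fat cells carry them as kidney cells do. Libraries are named here by K and the animal number, and the labels give no sex, strain, litter or dissection record.

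White adipocytes store triglyceride in a single large droplet coated by perilipins and CIDE proteins, and they secrete the adipokines adiponectin, leptin, resistin and adipsin. Brown adipocytes hold many small droplets and burn fat through the uncoupling protein encoded by Ucp1. The mouse kidney lies in a perirenal fat pad that has white and brown areas, and the fat of db/db mice is known for a high leptin transcript level. RefSeq promoter windows (GRCm38.p6), from 250 bases before to 50 bases after the gene start, were found for 8 of the 10 genes. Those of Adipoq (chr16:23146286-23146585, plus strand), Lep (chr6:29059971-29060270, plus strand), Cfd (chr10:79890603-79890902, plus strand) and Plin1 (chr7:79732727-79733026, minus strand) are shown because Lep and Cfd were set against Adipoq as ratios and Plin1 followed Adipoq, and capitals mark matches to the C/EBP motif TTGCNNAA.
Adipoq: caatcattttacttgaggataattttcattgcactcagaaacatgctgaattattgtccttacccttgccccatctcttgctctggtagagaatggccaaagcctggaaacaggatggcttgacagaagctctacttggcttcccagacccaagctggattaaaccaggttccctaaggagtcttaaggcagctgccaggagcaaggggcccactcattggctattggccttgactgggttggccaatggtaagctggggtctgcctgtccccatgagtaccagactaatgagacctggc
Lep: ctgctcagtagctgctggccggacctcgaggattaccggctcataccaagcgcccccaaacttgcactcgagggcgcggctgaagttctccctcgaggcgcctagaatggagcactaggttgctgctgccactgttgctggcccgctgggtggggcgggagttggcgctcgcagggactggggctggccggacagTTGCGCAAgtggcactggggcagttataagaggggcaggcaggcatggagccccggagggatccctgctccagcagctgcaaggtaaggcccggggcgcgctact
Cfd: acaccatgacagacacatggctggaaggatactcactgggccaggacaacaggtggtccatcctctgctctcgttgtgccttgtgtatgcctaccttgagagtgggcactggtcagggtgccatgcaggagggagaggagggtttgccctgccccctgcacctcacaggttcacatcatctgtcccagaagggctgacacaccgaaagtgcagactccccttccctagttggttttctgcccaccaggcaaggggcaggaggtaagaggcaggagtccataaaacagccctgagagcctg
Plin1: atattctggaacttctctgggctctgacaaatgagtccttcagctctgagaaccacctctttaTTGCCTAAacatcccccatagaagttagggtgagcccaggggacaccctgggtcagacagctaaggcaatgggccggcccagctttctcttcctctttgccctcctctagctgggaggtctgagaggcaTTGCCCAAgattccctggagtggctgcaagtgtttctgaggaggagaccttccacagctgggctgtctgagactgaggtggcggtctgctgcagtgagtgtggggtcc

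Matches to the C/EBP motif, which is bound by adipocyte transcription factors, were found in the windows of 3 of the 8 genes, Lep, Plin1 and Cidec, searching both strands. The match in Lep lay 55 to 48 bases before the start and, being its own reverse complement, was read on both strands. Plin1 held a pair of matches, 187 to 180 and 58 to 51 bases before the start. Of all 32851 promoter windows in the table, 10.8% held this motif. No window of the 8 genes held the PPAR gamma repeat of AGGNCA with 1 base between (in 0.381% of all windows), the TATA box TATAAA (13.6%) or the glucocorticoid receptor site GNACA and TGTNC with 3 bases between (0.475%). A match is a description of letters and not of binding.

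The kidney libraries held 19870485 to 22643055 estimated counts each. Camk2d was at 10.3 to 19.8 counts per 1000000 (CPM) in wild-type kidneys and 0.0864 to 0.557 CPM in knockout kidneys, so every library matched its genotype label. Kidney markers were present in all 16 libraries, with Miox of the proximal tubule at 1225 to 5029 transcripts per 1000000 (TPM) and Umod of the thick ascending limb at 94.9 to 1123 TPM. Xist and Y-linked transcripts marked 2 females and 2 males in each group. Mitochondrial transcripts took 22.0% to 45.4% of counts, and the highest shares were 45.4% in K591 (knockout diabetic) and 36.4% in K861 (wild-type non-diabetic).

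The summed level of the 10 genes differed most among the non-diabetic kidneys. In wild-type non-diabetic libraries it was 1850 CPM in K812, 420 CPM in K834, 381 CPM in K819 and 82.0 CPM in K861, a mean of 683 ± 792 (SD, n = 4). Wild-type diabetic libraries held 76.9 CPM in K645, 34.2 in K844, 27.6 in K877 and 20.6 in K597, a mean of 39.8 ± 25.3 (SD, n = 4), all below the lowest wild-type non-diabetic library. Among knockout non-diabetic libraries K559 stood apart with 312 CPM, beside 55.1 in K582, 31.6 in K560 and 24.1 in K584. Knockout diabetic libraries held 71.2 CPM in K588, 36.4 in K587, 25.0 in K596 and 17.9 in K591, which overlapped the knockout non-diabetic range. Fabp4 and Plin4 kept a level where Adipoq had 0 counts, and Fabp4 made up much of the sum in low libraries. Without both, K812, K819, K834 and K861 held 1107, 244, 248 and 36.8 CPM, and K597, K645, K844 and K877 held 2.07, 32.4, 6.2 and 0.924. Knockout K559, K560, K582 and K584 then held 162, 3.73, 18.3 and 1.96 CPM, and K587, K588, K591 and K596 held 2.81, 26.2, 0.91 and 0.69. In bulk RNA, fewer adipocytes and less of these transcripts per adipocyte cannot be told apart.

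The 2 wild-type non-diabetic females, K819 and K834, held 381 and 420 CPM and the 2 males 1850 and 82.0 CPM, while the wild-type diabetic females held 34.2 and 27.6 CPM and the males 20.6 and 76.9 CPM. In the knockout, the non-diabetic females held 312 and 31.6 CPM and the males 55.1 and 24.1 CPM, while both diabetic females, at 36.4 and 71.2 CPM, lay above both diabetic males, at 17.9 and 25.0 CPM. K861, the lowest wild-type non-diabetic library, also had the highest mitochondrial share of its group. Whether its RNA quality bears on its fat transcript level was not tested.

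**Figure D1:**
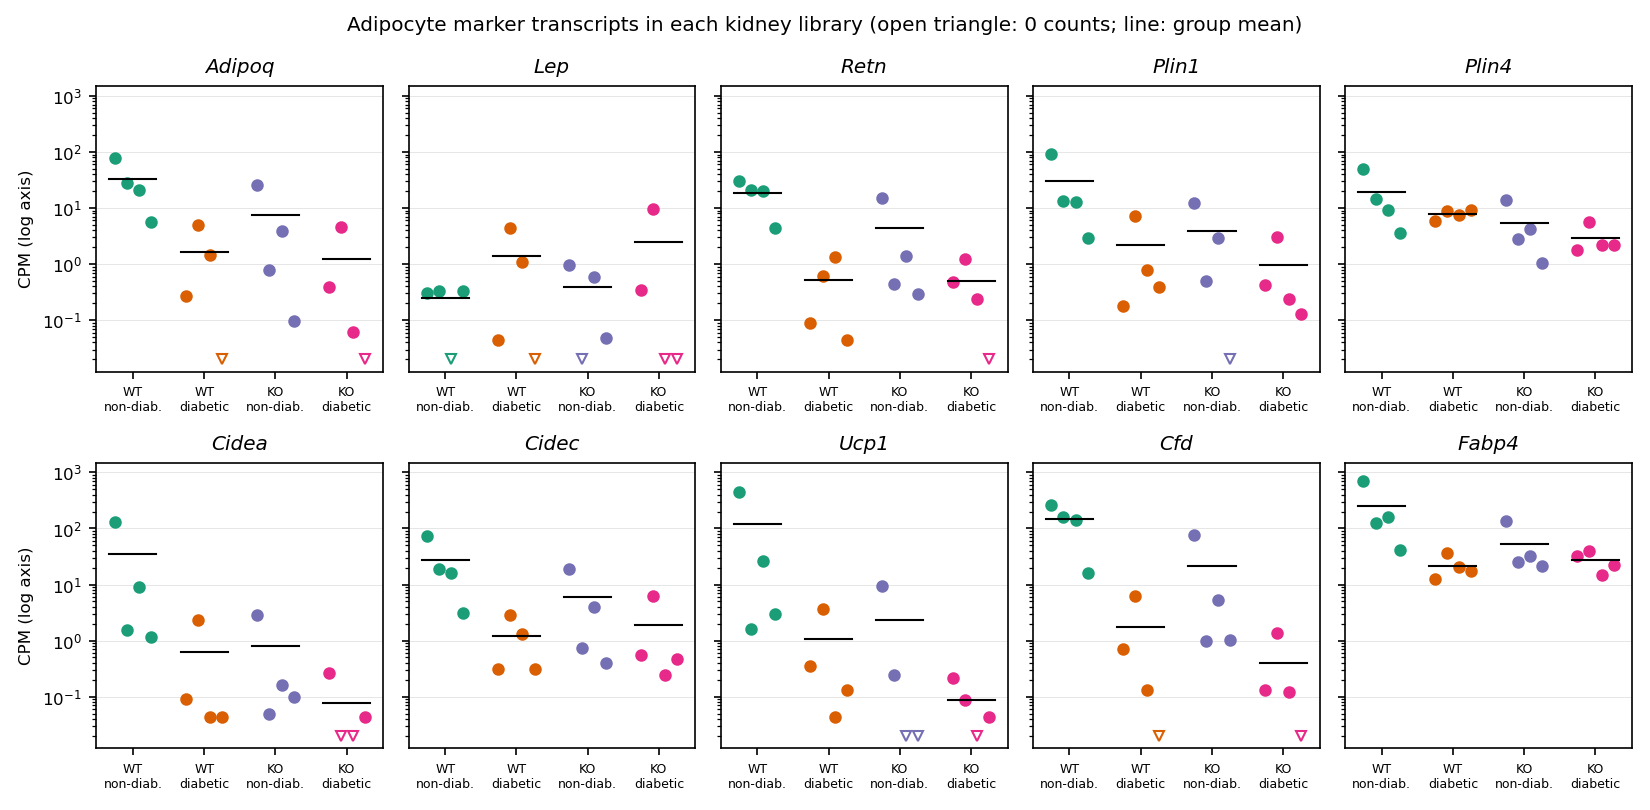
Levels of the 10 adipocyte markers in the 16 kidney libraries, in CPM on a log axis, by genotype (WT, KO) and diabetic state. Each point is a library, open triangles mark libraries with 0 counts, and lines are group means (n = 4). K812 is highest for the 9 genes other than Lep in the first group, and Fabp4 is at 17.3 and 22.1 CPM in the libraries with 0 Adipoq counts, K877 and K596.

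The adipokine and secreted-protein genes come first. Adipoq, which encodes adiponectin, was at 77.0, 27.7, 21.2 and 5.55 CPM in the wild-type non-diabetic libraries K812, K819, K834 and K861. In the wild-type diabetic libraries K597, K645, K844 and K877 it was at 0.269, 4.95, 1.44 and 0 CPM. These groups did not overlap, although K861 and K645 lay close together. In the knockout non-diabetic libraries K559, K560, K582 and K584 Adipoq was at 25.7, 0.785, 3.88 and 0.0982 CPM, and in K587, K588, K591 and K596, the knockout diabetic libraries, at 0.389, 4.54, 0.0604 and 0 CPM. The knockout groups overlapped, and each held 1 library well above its other 3. Libraries keep this order within each group below.

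Cfd encodes adipsin, the complement factor D protease that white fat secretes. It was at 262, 159, 142 and 16.3 CPM in wild-type non-diabetic libraries and at 0.718, 6.18, 0.131 and 0 CPM in wild-type diabetic ones. The groups did not overlap. Knockout non-diabetic libraries held 76.9, 0.982, 5.32 and 1.03 CPM and knockout diabetic ones 0.130, 1.37, 0.121 and 0 CPM, with overlap through K588. Retn, which encodes resistin, ran 30.3, 21.1, 19.8 and 4.37 CPM in wild-type non-diabetic libraries and 0.0898, 0.613, 1.35 and 0.0440 CPM in wild-type diabetic ones, again without overlap.

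Lep, which encodes leptin, followed another order. It was at 0.308, 0.332, 0 and 0.336 CPM in the wild-type non-diabetic libraries, where Adipoq was highest. The wild-type diabetic libraries held 0.0449, 4.48, 1.09 and 0 CPM. The highest Lep level of all 16 libraries was 9.76 CPM, or 228 counts, in the knockout diabetic library K588, beside 0.346 CPM in K587 and 0 in K591 and K596. Knockout non-diabetic libraries held 0.95, 0, 0.585 and 0.0491 CPM. K645 and K588 were thus the highest Lep libraries of their groups, and they were also the highest Adipoq libraries of those groups.

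The droplet genes Plin1, which encodes perilipin 1, and Cidec, a lipid droplet fusion protein, ran close to Adipoq. Plin1 spanned 2.92 to 93.7 CPM in wild-type non-diabetic, 0.180 to 7.31 in wild-type diabetic, 0 to 12.4 in knockout non-diabetic and 0.130 to 3.04 in knockout diabetic libraries. Cidec spanned 3.14 to 72.8, 0.308 to 2.83, 0.393 to 18.6 and 0.242 to 6.17 CPM in the same groups. Wild-type groups did not overlap for Cidec, and for Plin1 they overlapped through K645 at 7.31 CPM.

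Plin4, a perilipin that coats small droplets and is also known in muscle, kept a level where the other markers were at or near 0. Wild-type diabetic libraries held 5.84, 8.68, 7.38 and 9.33 CPM, the last in K877, which had 0 Adipoq counts and 212 Plin4 counts. Knockout diabetic libraries held 1.82, 5.65, 2.24 and 2.20 CPM, all below the lowest wild-type diabetic library. In wild-type non-diabetic libraries Plin4 was at 49.7, 14.7, 9.06 and 3.53 CPM, and in knockout non-diabetic ones at 13.9, 2.75, 4.20 and 1.03 CPM. The lowest wild-type non-diabetic library, K861, was below all 4 wild-type diabetic ones.

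Fabp4 encodes a fatty acid carrier of adipocytes that endothelium and macrophages also express. It was at 693, 123, 163 and 41.7 CPM in wild-type non-diabetic libraries and 12.7, 35.8, 20.6 and 17.3 CPM in wild-type diabetic ones, without overlap. Knockout non-diabetic libraries held 136, 25.1, 32.6 and 21.1 CPM and knockout diabetic ones 31.7, 39.4, 14.8 and 22.1 CPM, and only K559 stood above the other 7. In K877 and K596, where Adipoq had 0 counts, Fabp4 had 394 and 511 counts. The share of the summed level that came from Fabp4 was 37.5% in K812 and 88.4% in K596.

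The brown adipocyte genes were led by a single library. Ucp1, the uncoupling protein of brown fat, was at 440 CPM in K812, 26.7 in K834, 3.03 in K861 and 1.62 in K819. Wild-type diabetic libraries held 0.359, 3.73, 0.0437 and 0.132 CPM, knockout non-diabetic ones 9.27, 0.245, 0 and 0 CPM, and knockout diabetic ones 0.216, 0.0856, 0 and 0.0432 CPM. K812 set the upper end, with 10002 counts of this gene. Cidea, a droplet protein that is enriched in brown fat, was at 130, 1.58, 9.02 and 1.18 CPM in wild-type non-diabetic libraries, at most 2.31 CPM in wild-type diabetic ones and at most 2.85 CPM in knockout ones.

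On the scale of TPM, which accounts for transcript length, the order of the 10 genes within a library could be read. In K812 Fabp4 was at 901 TPM, Cfd at 354, Ucp1 at 297, Cidea at 136, Adipoq at 67.9, Cidec at 53.6, Plin1 at 52.4, Retn at 42.5, Plin4 at 8.62 and Lep at 0.174. In K819 Cfd led with 224 TPM over Fabp4 with 162, and Ucp1 was at 1.14 TPM beside 25.4 for Adipoq. Ucp1 thus lay above Adipoq in K812 and below it in K819, both wild-type non-diabetic. In K588 Fabp4 was at 44.2 TPM, Adipoq at 3.61 and Lep at 2.82.

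In wild-type kidney, 6 of the 10 markers fell with diabetes by the edgeR quasi-likelihood test at a Benjamini-Hochberg adjusted p under 0.05, where 4.49% of all genes tested were called lower and 2.81% higher. They were Retn, Cidea, Cidec, Ucp1, Cfd and Fabp4, and none rose. The median fitted log2 fold change of the 10 genes was -4.43, and that of all genes tested was -0.05. For 5 genes, Adipoq, Retn, Cidec, Cfd and Fabp4, every diabetic library was below every non-diabetic one, as for 9.88% of all genes.

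Fabp4 fell by 3.56 ± 0.79 on the log2 scale (SE, edgeR adjusted p = 0.0148). Retn fell by 5.15 ± 1.23 (0.0206) and Cfd by 6.38 ± 1.59 (0.025). The brown fat genes Cidea and Ucp1 fell by 5.85 ± 1.58 (0.0362) and 6.81 ± 1.88 (0.0387), and Cidec fell by 4.54 ± 1.30 (0.045). Adipoq, at -4.31 ± 1.46, missed the threshold (0.0792), as did Plin1 at -3.84 ± 1.38 (0.0929) and Plin4 at -1.30 ± 0.72 (0.241). Lep was the only gene with a positive estimate, 2.52 ± 1.71 (0.335).

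These calls rested on few libraries. No marker was called without K597 or without K877, and 3 were called without K645, without K844 or without K812. Without K812 the fall was 2.67 for Cidea (adjusted p = 0.187) and 3.31 for Ucp1 (0.162), and 2.33 for Fabp4, which was still called (0.0388). All 6 were called without K861 and K591, the libraries of highest mitochondrial share, and with sex in the model.

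**Figure D2:**
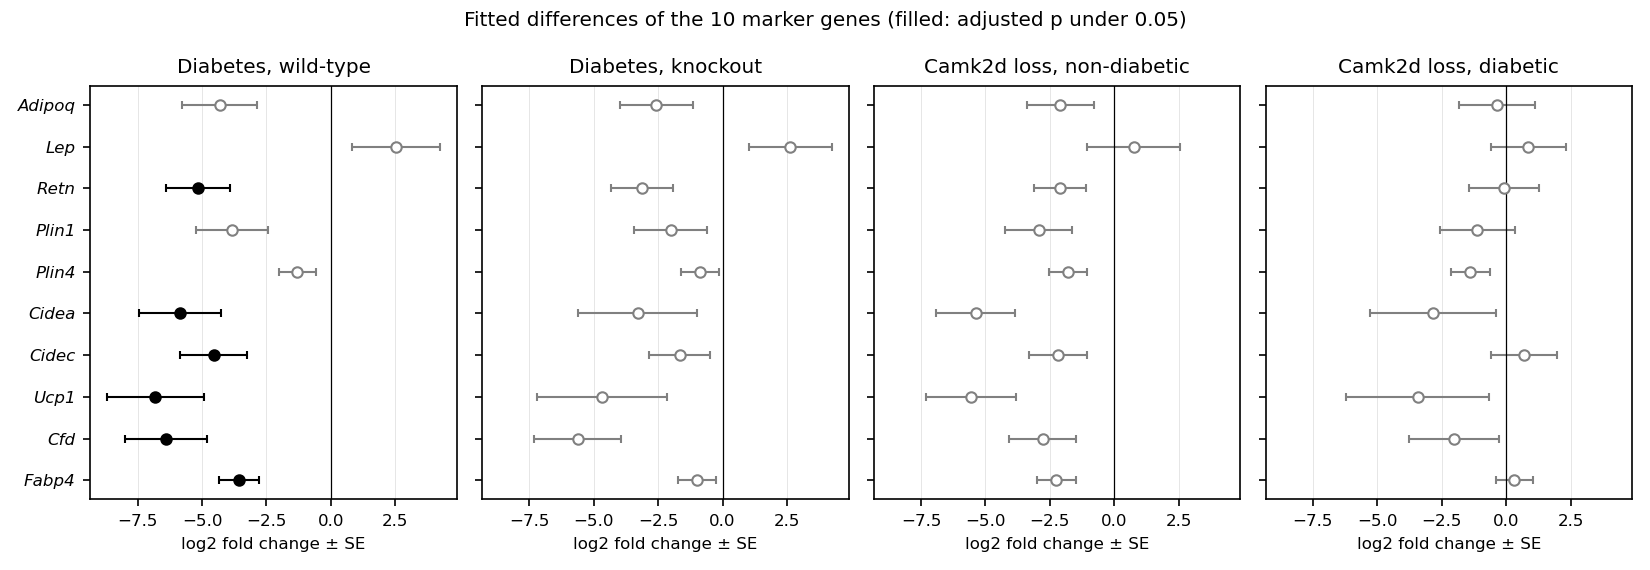
Fitted log2 fold changes (horizontal axis, ± SE) of the 10 markers in 4 comparisons of kidney groups of 4 libraries. Filled points passed an edgeR adjusted p under 0.05, which 6 genes did for diabetes in wild-type kidney and none did in the other comparisons; Lep lies right of 0 in all 4 panels.

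In knockout kidney no marker was called for diabetes by edgeR, where 0.077% of all genes were called in either direction, nor by DESeq2 or limma. At an unadjusted p under 0.05 there were 2 of the 10, beside 2620 of 18177 genes, Retn at -3.12 ± 1.20 and Cfd at -5.63 ± 1.69 (edgeR adjusted p = 0.307 and 0.262). Estimates were negative for 9 genes, with a median of -2.30, and Lep was at 2.63 ± 1.61. The genotype by diabetes interaction, which subtracts the wild-type response to diabetes from the knockout response, called no marker and 0.0% of all genes by edgeR. Fabp4 was the 1 marker with an unadjusted p under 0.05 there, beside 5301 of 18177 genes (2.57 ± 1.03, edgeR adjusted p = 0.13). All 10 interaction estimates were positive, with a median of 1.93 beside 0.05 for all genes tested, and their SE ran from 1.03 to 4.34. A difference between genotypes in the fall of the markers was therefore not shown, and SE of this size do not exclude one.

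Camk2d loss was compared within each diabetic state. In non-diabetic kidney no marker was called by edgeR, DESeq2 or limma (0.435% of all genes by edgeR), while 6 had an unadjusted p under 0.05, beside 1104 of 18177 genes. The median estimate was -2.22, the groups of every marker overlapped (2.32% of all genes were lower and 1.55% higher without overlap), and the 25.7 CPM of Adipoq in K559 lay within the wild-type range. Cidea was lowest in adjusted p, at -5.38 ± 1.53 (0.265), and Ucp1 had the largest estimate, -5.57 ± 1.73 (0.379). All comparisons here share control groups with another, so their values stand side by side and are not counted as support for each other.

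In diabetic kidney Camk2d loss called no marker by edgeR, DESeq2 or limma, beside 19.7% of all genes by edgeR, and none had an unadjusted p under 0.05, beside 7176 of 18177 genes. The median estimate was -0.74. Plin4 was the 1 marker whose groups did not overlap, lower in the knockout, as for 6.73% of all genes. Its estimate was -1.38 ± 0.75 (edgeR adjusted p = 0.177), and it was called in a fit of these 2 groups alone (-1.34, 0.0423). Fabp4 was at 0.32 ± 0.72 (0.757).

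The ratio of a pair of adipocyte transcripts within a library does not scale with its amount of fat RNA where both come from fat, so Lep, Cfd and Ucp1 were set against Adipoq. Counts of the gene per 100 Adipoq counts are given with 95% Clopper-Pearson intervals, which cover counting error only, for libraries with at least 3 counts of both genes. Lep was at 0.40 (0.161 to 0.826) in K812, 1.20 in K819 and 6.06 in K861. K834 had 0 Lep beside 516 Adipoq counts, where the minimum of 3 counts would be 0.581. Knockout non-diabetic libraries held 3.69 in K559 and 15.1 (7.21 to 28.6) in K582.

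All 4 diabetic libraries with at least 3 counts of both genes lay higher. Wild-type diabetic K645 held 90.5 Lep counts per 100 Adipoq counts (67.8 to 121) and K844 held 75.8 (43.2 to 131). Knockout diabetic K587 held 88.9 (29.8 to 260) and K588 held 215 (170 to 273). No diabetic library overlapped a non-diabetic one, and the lowest diabetic interval began above the highest non-diabetic one.

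Over both genotypes the Lep ratio was 31.3-fold higher in these 4 diabetic than in the 5 non-diabetic libraries, 4.97 on the log2 scale, and it was 5.76 higher in wild-type and 4.17 higher in knockout kidney. No test is given on these libraries, because a minimum of Lep counts leaves out libraries of low Lep. K834 (0 Lep beside 516 Adipoq counts), K560 (0 beside 16) and K597 (1 beside 6) stayed out for that reason.

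The ratio was therefore also taken in libraries chosen by Adipoq alone, with at least 3 Adipoq counts and 0.5 added to each count, a choice made after seeing the data, as was pooling the genotypes. Over both genotypes it was 5.38 higher on the log2 scale in 5 diabetic than in 7 non-diabetic libraries. The two-sided exact permutation test within genotype gave p = 0.00286, the smallest of 350 permutations, and 0.00858 after Benjamini-Hochberg adjustment over 6 tests of Lep, Cfd and Ucp1. In this set too the added 0.5 favours a difference, because the lowest ratio it allows is higher where Adipoq counts are few. The diabetic libraries K597 and K587 had 6 and 9 Adipoq counts, and K834, non-diabetic with 0 Lep counts, had 516. The p-value therefore does not rest on the measured ratio alone. In wild-type kidney alone the difference was 6.14, which did not pass (exact permutation p = 0.0571, adjusted 0.0857, 4 against 3 libraries). With all 4 libraries of each group the differences were 6.36 in wild-type kidney (exact permutation p = 0.0286, the smallest possible) and 3.14 in knockout kidney (exact permutation p = 0.0571). There the libraries with 0 counts of both genes, K877 and K596, enter at a ratio of 1, or 0 on the log2 scale, through the added 0.5. That lies beside the diabetic libraries K645 (-0.14) and K844 (-0.39), so the added 0.5 itself favours a difference. Nothing is drawn from the p-values with all libraries.

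The Cfd ratio moved the other way. It was at 341 (323 to 359), 576, 673 and 293 Cfd counts per 100 Adipoq counts in the wild-type non-diabetic libraries. In the wild-type diabetic ones it was at 267 (99.1 to 832) in K597, 125 (95.8 to 163) in K645 and 9.09 (1.78 to 29.0) in K844. The wild-type groups did not overlap, though the interval of K597 reached across the non-diabetic values. Knockout non-diabetic libraries held 299, 125 and 137 in K559, K560 and K582, and knockout diabetic ones 33.3 (5.80 to 134) in K587 and 30.2 (19.7 to 45.2) in K588.

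In wild-type kidney the Cfd ratio was 6.41-fold higher in the non-diabetic libraries, -2.68 on the log2 scale as diabetic minus non-diabetic (exact permutation p = 0.0286, two-sided, the smallest possible with 4 against 3 libraries; 0.0572 adjusted over the 6 tests, which did not pass). With both genotypes, a choice made after seeing the data, it was 5.73-fold higher in the non-diabetic libraries, -2.52 on the log2 scale. The exact permutation test within genotype gave p = 0.00286, the smallest of 350 permutations, and 0.00858 adjusted over the 6 tests. The minimum of Cfd counts left out no library with at least 3 Adipoq counts. The wild-type difference was -1.32 without K844.

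The Ucp1 ratio was at 572 (543 to 602) Ucp1 counts per 100 Adipoq counts in K812, 126 in K834, 54.5 in K861 and 5.85 (4.12 to 8.08) in K819. The wild-type diabetic libraries held 133 (40.6 to 466) in K597 and 75.2 in K645. K844 had 1 Ucp1 count, where the minimum of 3 counts would be 9.09. Knockout libraries held 36.0 in K559, 31.2 in K560 and 55.6 in K587. K582 and K588 had 0 and 2 Ucp1 counts, where 3 counts would be 4.11 and 2.83 per 100 Adipoq counts. These values are not confidence limits. In libraries with at least 3 Adipoq counts the difference over both genotypes was -0.33 on the log2 scale (exact permutation p = 0.86, adjusted 0.86) and in wild-type kidney -0.98 (exact permutation p = 0.657, adjusted 0.788). With all 4 libraries of each group it was 0.10 in wild-type and 1.59 in knockout kidney (exact permutation p = 0.914 and 0.457). The direction of the difference changed with the libraries kept.

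**Figure D3:**
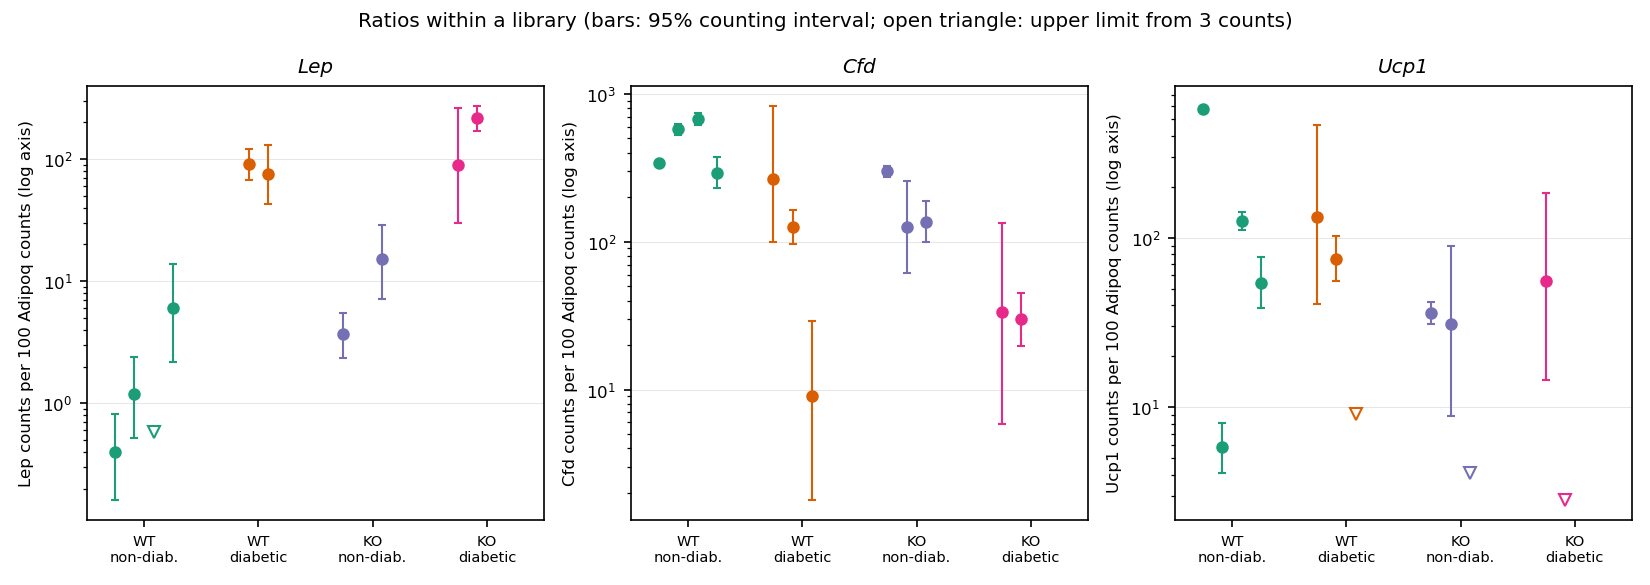
Counts of Lep, Cfd and Ucp1 per 100 Adipoq counts in each kidney library, on log axes, with 95% counting intervals. Open triangles, for libraries with fewer than 3 counts of the gene, mark where 3 counts would lie and are not confidence limits. Libraries with under 30 Adipoq counts and fewer than 3 counts of the gene are not drawn. Lep runs from 0.40 to 15.1 in non-diabetic and from 75.8 to 215 in diabetic libraries with at least 3 counts of both genes.

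Plin4 and Fabp4 were set against Adipoq in the same way. Plin4 was at 42.8 to 64.6 counts per 100 Adipoq counts in the 4 wild-type non-diabetic libraries and at 54.0 in K559. In the wild-type diabetic libraries it was at 175 in K645, 512 in K844 and 2170 (969 to 6010) in K597. Fabp4 was at 444 to 900 counts per 100 Adipoq counts in the wild-type non-diabetic libraries, 528 in K559 and 838 in K582. It was at 723 in K645, 867 in K588 and 1430 in K844, and at 3190 in K560, 4700 in K597 and 8160 in K587, which had 16, 6 and 9 Adipoq counts. Plin1 and Cidec stayed between 48.2 and 148 and between 56.6 and 144 counts per 100 Adipoq counts in all libraries with at least 3 counts of each. These ranges leave out the libraries with under 3 Adipoq counts. K877 and K596, with 0 Adipoq counts, had 9 and 3 Plin1 counts and 7 and 11 Cidec counts. K584 had 0 Plin1 and 8 Cidec counts beside 2 Adipoq counts, and K591 had 4 of each beside 1.

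**Figure D4:**
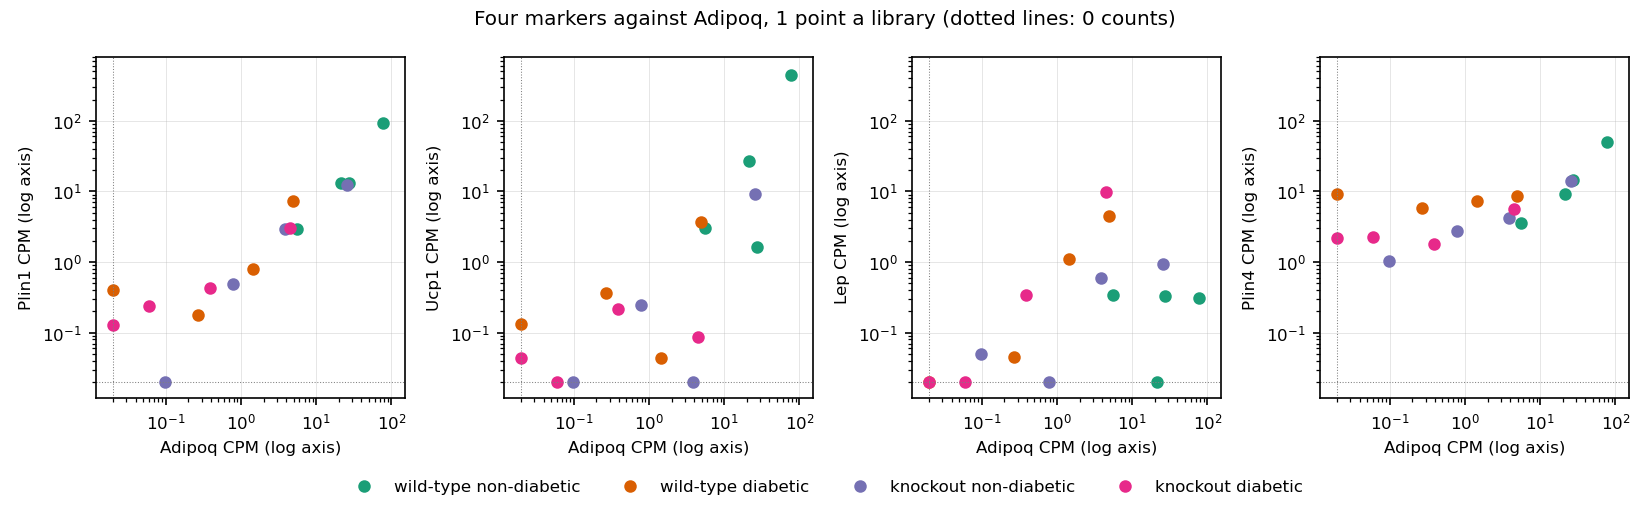
CPM of Plin1, Ucp1, Lep and Plin4 against CPM of Adipoq on log axes, 1 point a kidney library, coloured by group; dotted lines mark 0 counts. Plin1 follows Adipoq in a line, Ucp1 scatters, the 2 highest Lep points are the diabetic libraries K588 and K645, and Plin4 flattens at 1.03 to 9.33 CPM where Adipoq is low.

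Across the 16 libraries the markers other than Lep varied together. The 36 pairs among these 9 genes had a Pearson's r of log2 CPM of 0.66 to 0.972, with a median of 0.864, and the 9 pairs with Lep ran from 0.0947 to 0.469. The points of such a correlation share library and depth, and groups that differ enter it, so it is a description. With each group centred on its own mean, the r of Lep with the mean of the other markers was 0.642, beside 0.287 before centring. Leaving out K812 and K834, the libraries farthest from the median, it was 0.56 for Lep and 0.651 to 0.966 for the other 9.

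The genes outside the 10 whose levels ran most like the markers were read by their r with the mean log2 CPM of the markers. They were Adrb3 (0.962), the beta-3 adrenergic receptor of adipocytes, Slc36a2 (0.962), Car3 (0.961), a carbonic anhydrase abundant in fat, Adig (0.956), Arxes2 (0.947), Thrsp (0.936), Slc7a10 (0.932), Prkar2b (0.931), Acvr1c (0.927) and Apol6 (0.927). Car3 was at 461, 161, 143 and 40.4 CPM in the wild-type non-diabetic libraries and at 9.97 to 37.2 CPM in the wild-type diabetic ones. Likeness was taken over these same libraries, so such levels add no separate support. An r of at least 0.7 was found for 98 of 18167 genes outside the markers, 0.539%, and for 9 of the 10 markers.

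Other adipocyte genes did not all follow the markers. Of 32 other white adipocyte genes, 17 had an r of at least 0.7 with the markers, and in wild-type kidney 14 fell and 1 rose with diabetes. Of all genes tested, 4.49% were called lower and 2.81% higher there. Adrb3 fell by 6.63 ± 1.54 on the log2 scale (edgeR adjusted p = 0.0179), Adig fell by 5.60 ± 1.27 (0.0159) and Thrsp fell by 4.15 ± 1.05 (0.0269). Adrb3, Adig and Thrsp were named for their likeness to the markers in these same libraries, so their falls add no separate support. Gpd1, Mgst1 and Dgat2, which are among the 5 most abundant of that list by TPM, had an r of 0.228, -0.0787 and 0.152. Lpl, the lipase that frees fatty acids from lipoproteins, had an r of 0.655 and fell in both genotypes, by 2.63 ± 0.23 in wild-type kidney (8.85e-05; 0.0126 in the knockout). In knockout kidney 1 gene of this list fell and 1 rose with diabetes, and Camk2d loss called none in non-diabetic and 2 higher in diabetic kidney. Of all genes, 0.077%, 0.435% and 19.7% were called in either direction in these comparisons.

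Of 14 other brown adipocyte genes tested, 4 had an r of at least 0.7, Otop1 (0.888), Cox8b (0.869), Kcnk3 (0.835) and Cox7a1 (0.75). Cox8b, a cytochrome oxidase subunit of brown fat and muscle, was at 71.4 CPM in K812 and 0.729 to 9.55 CPM in the other wild-type non-diabetic libraries, and at most 1.04 CPM in the wild-type diabetic ones. In wild-type kidney 3 genes of this list fell with diabetes and 2 rose, beside 4.49% lower and 2.81% higher of all genes. Cox8b fell by 6.31 ± 1.60 on the log2 scale (edgeR adjusted p = 0.027), while Fabp3, a fatty acid carrier of muscle and tubule, rose by 0.96 ± 0.19 (0.00918) and had an r of -0.112. Cox8b is also among the genes named for likeness to the markers in these libraries, so its fall adds no separate support.

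**Figure D5:**
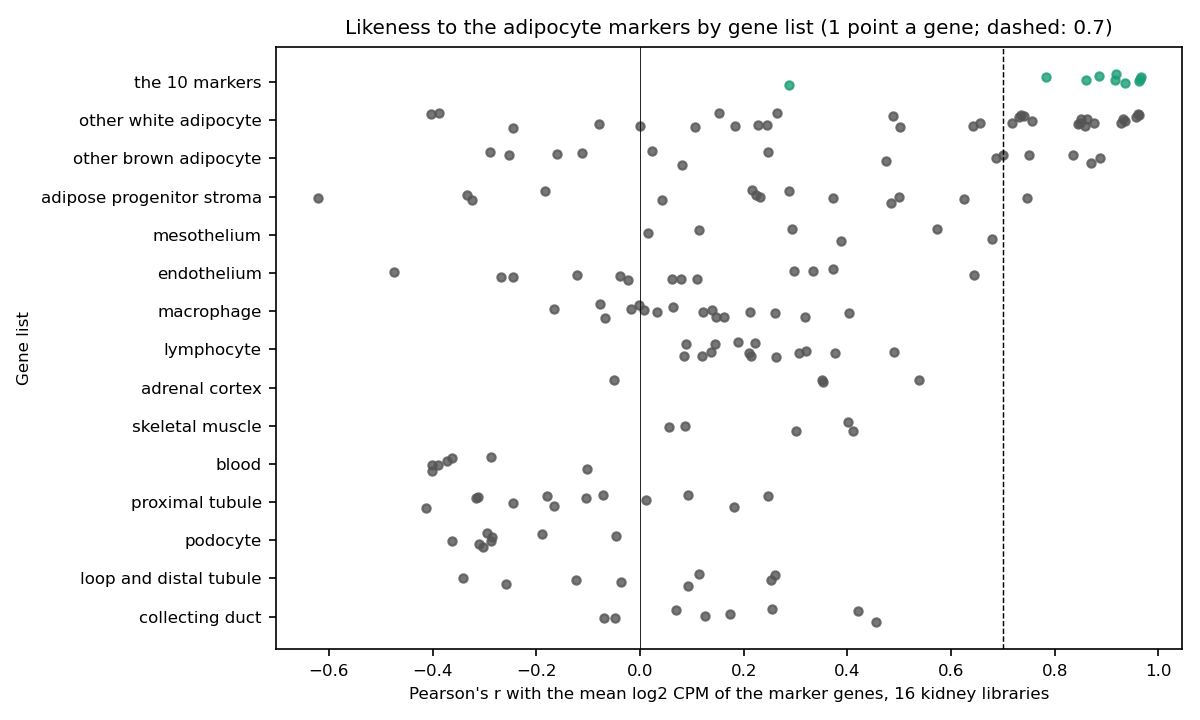
Pearson's r of each listed gene with the mean log2 CPM of the adipocyte markers over 16 kidney libraries (horizontal axis), 1 point a gene, by list; the dashed line is at 0.7. Of the 10 markers 9 lie right of the line, with 17 of 32 other white adipocyte, 4 of 14 other brown adipocyte and 1 of 14 stromal genes.

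Lists of other tissues were read beside the markers. Among adipose progenitor and stromal genes, 1 of 14, Gsn (0.746), had an r of at least 0.7. None did in the lists of mesothelium, endothelium, macrophages, lymphocytes, adrenal cortex, skeletal muscle, blood, proximal tubule, podocytes, loop and distal tubule or collecting duct. In wild-type kidney 9 of 14 lymphocyte and 6 of 16 macrophage genes fell with diabetes and none rose, beside 4.49% lower of all genes. Summed lymphocyte genes were at 25.6 to 87.1 CPM in wild-type non-diabetic and 6.74 to 18.8 CPM in wild-type diabetic libraries, and macrophage genes at 92.6 to 181 and 43.8 to 76.7 CPM. With Camk2d loss in diabetic kidney, where no fat marker was called, 11 of the 14 lymphocyte and 12 of the 16 macrophage genes rose and none fell. In that comparison 19.7% of all genes were called in either direction. Of 13 endothelial genes 5 rose, as did 4 of 14 adipose progenitor and stromal genes, and none of either list fell. In the proximal tubule list 1 rose and 4 fell. The part of immune, endothelial and stromal cells in the marker levels was not tested.

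The 14 retina libraries gave the level of the 10 genes in another organ. Adipoq had 0 to 5 counts there, Lep 0 to 1, Cidec 0 to 3, Cfd 0 to 2 and Ucp1 0 to 9, beside up to 1750, 228, 1653, 5961 and 10002 counts in kidney. Retn at 32 to 102 counts, Cidea at 14 to 33, Fabp4 at 223 to 674, Plin4 at 20 to 67 and Plin1 at 7 to 25 had counts in every retina library. These 5 genes thus had reads where Adipoq was near 0, as Fabp4 and Plin4 had in kidney. For K812 the retina of the same animal had 7 Ucp1 and 2 Adipoq counts.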

How the data were processed

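Frozen organs were extracted with Trizol and sequenced on the BGISEQ-500, per the labels' protocols. Per the submitters' processing notes, the tools were Trim Galore 0.6.4 and kallisto, given as version 0.4.6, and the build was GRCm38.p6. The deposited values are the authors' expected counts per gene, 35% of them not whole numbers because kallisto divides shared reads, and the authors' TPM per gene. Expected counts were rounded before testing. kallisto uses unique and shared reads alike, and 96.8% to 100.0% of the 31-mers of the marker transcripts occurred in no other gene.

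Identifiers were matched to GENCODE M21, 54487 of 55385 with their version and 55144 without it; Plin4 matched only without. edgeR 4.0.16 (R 4.3.3) fitted the 16 kidney libraries in 4 groups after TMM scaling and filterByExpr, with quasi-likelihood tests adjusted by Benjamini-Hochberg over 18177 genes in each of 5 comparisons. The code was tested on simulated data. CPM values use TMM library sizes. Ratios used (count + 0.5) and needed at least 3 counts of both genes, or, for the permutation tests of the report, at least 3 Adipoq counts or all libraries, as stated there. Likeness is Pearson's r of log2 CPM (prior count 2), leaving a gene out of the mean for its own value. Alternatives were relative log expression scaling, no filter, robust dispersion, a sex covariate, DESeq2 1.42.0, limma 3.58.1 on log2(TPM + 1), fits of the 2 groups compared, and leaving out libraries. Clopper-Pearson intervals came from SciPy 1.17.1, and permutation tests enumerated every arrangement.

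The members and lists (15 lists, 188 genes beside the markers) were chosen with earlier results of these data known. Named genes are the 10 markers, the 10 genes of highest likeness (predicted names skipped), and from the lists the 5 (adipocyte) or 2 (others) of highest TPM or likeness, of which the text prints a part. No 2 libraries were identical.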

Additional observations from a re-analysis of the deposited data

Results flagged for a closer look

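In each kidney group of 4 libraries, a level was marked when 1 library lay farther from the other 3 than Dixon's 95% critical value allows. Of 40 combinations of gene and group, 21 were marked. The rule marks about 1 in 20 by chance only where values are normally distributed. These CPM levels were skewed, so 21 is not set against that rate. In wild-type non-diabetic kidney K812 stood apart for Plin1 (93.7 CPM), Cidea (129.8 CPM) and Ucp1 (440 CPM), and K834 for Lep with 0 CPM. In wild-type diabetic kidney K645 stood apart for Plin1 (7.31 CPM), Cidea (2.31 CPM), Ucp1 (3.73 CPM) and Cfd (6.18 CPM). In knockout non-diabetic kidney K559 stood apart for Adipoq (25.7 CPM), Retn (15.2 CPM), Cidea (2.85 CPM), Ucp1 (9.27 CPM), Cfd (76.9 CPM) and Fabp4 (136 CPM). In knockout diabetic kidney K588 stood apart for Adipoq (4.54 CPM), Lep (9.76 CPM), Plin1 (3.04 CPM), Plin4 (5.65 CPM), Cidec (6.17 CPM) and Cfd (1.37 CPM), and K587 for Cidea (0.260 CPM). The markers of a library were measured in the same RNA, so these marks are not independent.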

How the results depend on the processing

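The count of 6 markers called lower with diabetes in wild-type kidney was 6 with relative log expression scaling, no filter, a sex covariate, DESeq2 and without K861 and K591, 5 in a fit of the 2 groups, 3 with robust dispersion and 2 with limma on log2(TPM + 1). Leaving out 1 library gave 0 to 6. Of the 24 alternatives, Cidec lost its call in 11, Ucp1 in 9, Cidea in 7, Retn and Fabp4 in 3 each and Cfd in 2. No marker was called in the other comparisons under any alternative, except 1 for Camk2d loss in diabetic kidney in a fit of the 2 groups. The cause of these shifts was not tested, beyond the smaller groups of the leave-one-out fits.

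Of 1180 refitted log2 changes of single markers, 1107 kept their direction and their side of the threshold and 36 changed sign, none of them of a called gene. Leaving out 1 library gave these ranges of log2 change where the sign turned. For Camk2d loss in diabetic kidney they were Adipoq -3.34 to 1.15, Cfd -4.34 to 0.57, Cidea -4.83 to 0.41, Cidec -1.42 to 1.54, Lep -3.45 to 2.71, Plin1 -2.97 to 1.10, Retn -1.12 to 1.01, and Retn was at 0.11 without K861 and K591. For Camk2d loss in non-diabetic kidney the range was Lep -0.19 to 1.15. For diabetes in knockout kidney they were Cidec -3.76 to 0.17, Fabp4 -1.25 to 0.049, Lep -1.67 to 3.61, Plin4 -1.41 to 0.18, Ucp1 -5.55 to 0.14. For the interaction they were Adipoq -1.25 to 4.02, Cfd -1.57 to 3.87, Cidea -0.60 to 5.79, Lep -4.19 to 1.97, Plin1 -0.034 to 4.03, Plin4 -0.66 to 1.47, Ucp1 -1.34 to 6.92, and Lep was at -0.23 with a sex covariate and -0.026 with limma.

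Leaving out 1 library, the log2 Lep ratio over both genotypes ran from 4.46 to 5.49 in the libraries with at least 3 counts of both genes. That is the set for which no test is given. Libraries were not left out of the tested set, chosen by Adipoq alone. The log2 Cfd ratio in wild-type kidney ran from -3.62 to -1.32, with an exact permutation p of 0.1 where 3 libraries of each group remained, and over both genotypes from -2.99 to -1.84. The Ucp1 ratio had no stable direction: its log2 difference in wild-type kidney ran from -0.67 to 1.53 leaving out 1 library, in knockout kidney it was 1.59 with all 4 libraries of each group, and over both genotypes -0.48 in libraries with at least 50 Adipoq counts. In libraries with at least 3 Adipoq counts it was -0.98 in wild-type, 0.32 in knockout and -0.33 over both genotypes. No paired analysis was possible because the 4 kidney groups compared share no animal number. Of the 16 libraries, 7 held under 20 Adipoq counts, which widens the intervals of their ratios.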
